A study of Mus musculus with 10 samples.

Results

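Brown adipocytes given BML-260 for 3 days were compared with brown adipocytes given ISO, gene by gene. The comparison takes every library whose title and treatment label place it in either group, which is 4 of the 10 libraries of the series, 2 in each group, and it covers all genes. Messenger RNA was read by RNA sequencing, and all cells came from mice of the strain C57BL/6. BML-260 is marketed as a small molecule blocker of Dusp22, a dual-specificity phosphatase. The labels do not spell ISO out and list it at 1 day, so the groups differ both in agent and in labelled time. DMSO, the solvent, given for 1 day or for 3 days, served as the reference at each time. BML-260 given for 1 day was in none of the comparisons tested here. Its libraries entered the filter on low counts, the scaling, the estimate of the spread and the principal components. Doses, the age of the mice and the way the cells were grown are not stated in the labels. Whether both libraries of a group stem from different cultures or animals is not stated either. All p-values therefore rest on the spread seen among these libraries, and that spread may be purely technical.

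Brown adipocytes take up fat and glucose and oxidise them in many mitochondria, and the inner membrane protein Ucp1 lets the resulting proton gradient run down as heat. Beta-adrenergic receptors, among them the fat cell receptor Adrb3, switch the programme on through cyclic AMP, which also starts lipolysis, the release of fatty acids from stored triglyceride. The same cells secrete adipokines and complement proteins, respond to interferon, and defend themselves against oxidants through the factor NRF2 and against amino acid or protein stress through the factor ATF4.

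The libraries of all 5 groups held 16955918 to 21185675 counts, the 4 compared here spanning that whole range, and 15212 of 24640 genes passed a filter on low counts. Markers of fat cells were present in all 4 libraries, Fabp4 at 4295 CPM or more and Adipoq at 438 CPM or more, where CPM is the count rate relative to the scaled library total. Endothelial markers summed to at most 1.76 CPM, with Cdh5 and Emcn at 0 in the 4 libraries compared, and the 3 skeletal muscle markers measured (Myh3, Ckm and Tnnt3) to at most 0.239 CPM. The 4 macrophage markers measured summed to 6.73 to 7.24 CPM, with Cd68 at 116 to 130 counts and Csf1r, Lyz2 and Itgam at 0 to 9 counts a library, and to 2.9 to 4.42 CPM with DMSO. The other 4 muscle and 5 macrophage symbols listed, among them Myod1, Myog, Adgre1 and Ptprc, were not found among the 24640 genes. The ISO libraries lay closer to cells of the other labelled time than to their own. Their root mean square log2 difference across genes was 0.295 from DMSO at 3 days and 0.425 from DMSO at 1 day, against 0.31 from BML-260 at 3 days. On the first principal component, which held 41.3% of the variance, the 4 other libraries labelled 1 day scored -28.6 to -23.2, the 4 libraries labelled 3 days scored 4.94 to 29.0 and the ISO libraries scored 17.9 and 21.4. For several gene lists ISO is therefore also given against DMSO of 1 day, its labelled time, and of 3 days. With DMSO at 3 days as the reference of both agents the difference of their effects is the direct comparison itself. In the direct comparison agent and time cannot be told apart.

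Cells with BML-260 for 3 days had less mRNA of many interferon-stimulated, complement, chemokine and extracellular matrix genes than cells with ISO, and less of most genes that mark the fat cell, such as Adipoq, Retn and Adrb3. They had more mRNA of many NRF2 and ATF4 target genes and of several brown fat genes, among them Elovl3, Cidea and Ucp1. Among the 22 brown fat genes listed and tested 9 were higher, 3 were lower and 10 did not pass. Measured against DMSO of the labelled times, Ucp1 rose less with BML-260 than with ISO. Of the nuclear genes of oxidative phosphorylation 28 of 51 were higher, by small amounts. In edgeR's quasi-likelihood test with Benjamini-Hochberg adjustment over all genes 2499 of 15212 genes passed at an adjusted p under 0.05, 16.4% of those tested. Of these 1110 were higher with BML-260 (7.3%) and 1389 lower (9.13%). A change of at least 1 on the log2 scale as well was found for 169 genes (1.11%), 48 that were higher (0.316%) and 121 that were lower (0.795%). The libraries of both groups did not overlap for 8388 genes (55.1%). DESeq2 called 1575 genes. Without 1 library the count was 1416 (ISO library 1), 1420 (BML-260 library 2), 1753 (BML-260 library 1) or 2127 (ISO library 2), and lower genes outnumbered higher ones in each.

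**Figure D1:**
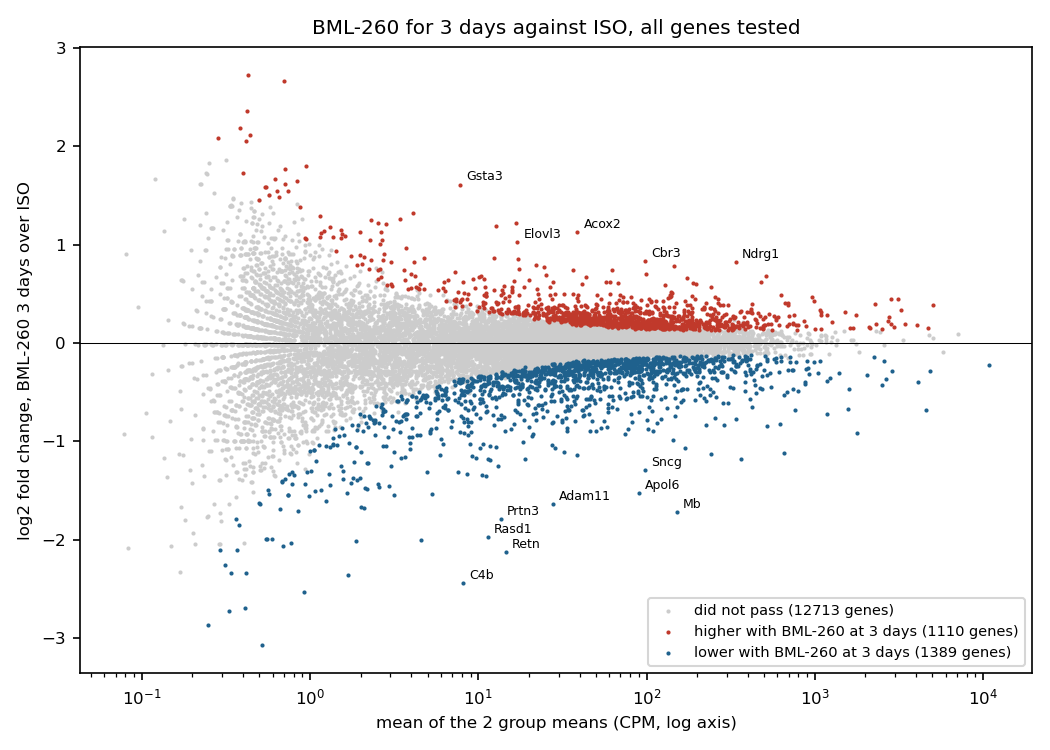
Each point is 1 of the 15212 genes tested, with the mean of both group means in CPM on a log axis and the log2 fold change of BML-260 at 3 days over ISO on the vertical axis. Red points are the 1110 genes higher with BML-260, and blue points the 1389 lower ones, among them C4b, Retn and Mb.

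The leading genes were taken from those called with 10 CPM or more where highest and no overlap between the libraries, predicted loci left out. The largest rise among them was that of Gsta3, a glutathione transferase that conjugates reactive lipid products. It stood at 12.4 and 11.1 CPM with BML-260 and at 4.25 and 3.49 CPM with ISO. The log2 fold change was 1.61 ± 0.15 (SE; edgeR adjusted p = 1.1e-08). Atf3, a stress-induced transcription factor, stood at 23.9 and 22.8 CPM against 10 and 9.98 CPM. All 4 DMSO libraries of Atf3 were lower still, at 6.96 to 8.09 CPM, and its log2 fold change was 1.22 ± 0.10 (SE; edgeR adjusted p = 6.3e-10). Acox2, a peroxisomal oxidase of branched fatty acids and bile acid precursors, read 55.4 and 51.2 CPM against 24.4 and 24.3 CPM. The 4 DMSO libraries of Acox2 lay between 17.6 and 20.7 CPM, nearer to ISO than to BML-260. Elovl3, an elongase of very long chain fatty acids that marks active brown fat, was 22.9 CPM in both BML-260 libraries and 11.7 and 10.8 CPM with ISO. Its exons overlap Pitx3. The other leading genes of this direction were Dmd, the dystrophin gene, at a log2 fold change of 1.19, and Aig1, Plscr2, Cbr3, Ndrg1, Extl1, Lrrc39 and Cystm1, at 0.75 to 0.86. Of these Ndrg1, a stress and hypoxia gene, was the most changed against its spread, with 439 and 426 CPM against 239 and 252 CPM (log2 fold change 0.82 ± 0.04, SE). Lrrc39 differed from the rest in that ISO was the low group, at 18.2 and 18 CPM beside 26.8 to 39.6 CPM in the DMSO libraries and 29.4 and 32.3 CPM with BML-260.

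Under the same limits the steepest fall was that of C4b, a complement protein of the classical pathway. It stood at 2.69 and 2.37 CPM with BML-260 and at 13.2 and 14.2 CPM with ISO, while the 4 DMSO libraries held 9.37 to 13.3 CPM. The log2 fold change was -2.44 ± 0.15 (SE; edgeR adjusted p = 3e-12), a level 5.43-fold lower. C4b has a near-identical neighbour, C4a, which read 0.654 to 1.05 CPM in the 4 libraries, so how reads were split between both genes is uncertain. Retn, the gene of the adipokine resistin, read 6.2 and 4.68 CPM against 24.6 and 22.9 CPM (log2 fold change -2.13 ± 0.14, SE). Mb, the gene of the oxygen store myoglobin, read 67.8 and 72.9 CPM against 229.9 and 235 CPM. BML-260 thus lay far below the DMSO libraries of Mb, at 189 to 299 CPM, and ISO within their range. The log2 fold change of Mb was -1.72 ± 0.06 (SE; edgeR adjusted p = 6.4e-18). Apol6, at -1.53, lies on the opposite strand and overlaps Mb in part, with shared exon sequence in the annotation. Reads from the shared part may not be told apart. The other leading genes that fell were Rasd1, a Ras-like regulator of adenylyl cyclase signalling (-1.97), Prtn3, a serine protease (-1.79), the membrane protein gene Adam11 (-1.64), the chemokine gene Ccl2 (-1.35), the metalloproteinase inhibitor Timp3 (-1.34), the interferon-induced Ifi27l2a (-1.33), the Wnt antagonist Apcdd1 (-1.31) and the synuclein gene Sncg (-1.29). Prtn3 and Timp3 share exons with Plppr3 and Syn3.

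**Figure D2:**
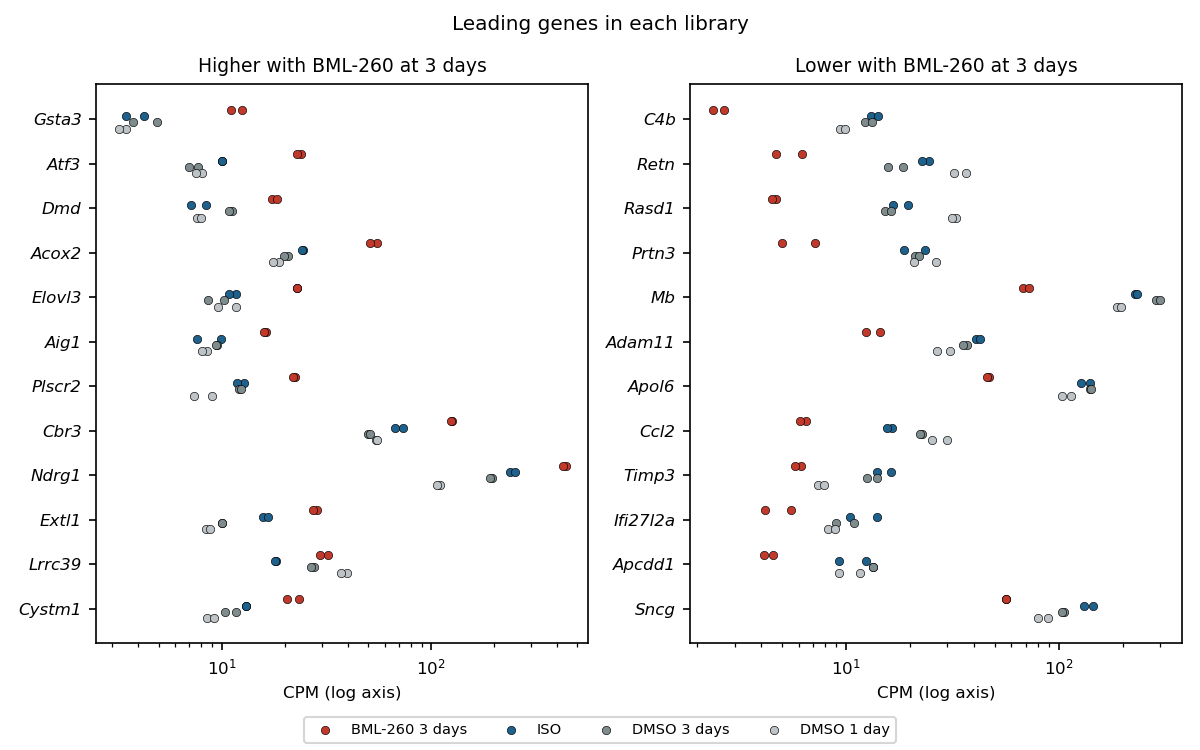
Points are single libraries, 2 for each group, on a log axis of CPM, for the 12 higher and the 12 lower genes of largest change. BML-260 (red) and ISO (blue) do not overlap for any of them, by the rule that chose them, and for Gsta3, Atf3 and C4b the ISO points lie near the grey DMSO points.

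Thermogenic genes moved in both directions. Of 24 genes on the list of brown fat genes 22 were tested, and 9 were higher with BML-260, 3 lower and 10 did not pass, with a median log2 fold change of 0.13 beside -0.004 over all genes. Ucp1 stood at 32.8 and 30.7 CPM with BML-260 and at 26.1 and 23.5 CPM with ISO. The 2 groups did not overlap, and both were above DMSO, at 12.3 and 13.1 CPM after 3 days and 6.05 and 5.1 CPM after 1 day. The log2 fold change of Ucp1 was 0.36 ± 0.09 (SE; edgeR adjusted p = 0.0046), but it no longer passed without BML-260 library 1 (0.31) or ISO library 2 (0.28). Against DMSO of the labelled times the order turned: the rise of Ucp1 was 1.32 with BML-260 and 2.15 with ISO on the log2 scale, a difference of -0.83 ± 0.16 (SE; edgeR adjusted p = 0.00033). Against DMSO of 3 days the rise with ISO was 0.96. Cidea, which enlarges lipid droplets, read 232 and 242 CPM with BML-260 and 155 and 157 CPM with ISO (log2 fold change 0.60 ± 0.05, SE). ISO lay between the DMSO libraries of Cidea, 128 and 130.3 CPM at 1 day and 196 and 205 CPM at 3 days. Ppara, the fatty acid sensing receptor, was higher by 0.44, and for it BML-260 (105 and 108 CPM) was at the level of DMSO and ISO (79.6 and 77.3 CPM) below it. Kcnk3, a potassium channel of brown fat, fell by 0.66, from 169.7 and 157 CPM with ISO to 108 and 97.8 CPM. Ppargc1a, the coactivator that drives mitochondrial growth, read 41.2 and 38.6 CPM with BML-260 and 36.9 and 34.4 CPM with ISO, a difference of 0.17 that did not pass (edgeR adjusted p = 0.079). The hormone gene Fgf21 (1.26), the fatty acid importer Cpt1b (1.05) and the proton channel Otop1 (0.82), all under 6 CPM in these libraries, also rose, and the brown fat regulator Prdm16 fell (-0.53), 4 genes chosen after their values were seen. Without ISO library 2 the list had 5 higher members.

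**Figure D3:**
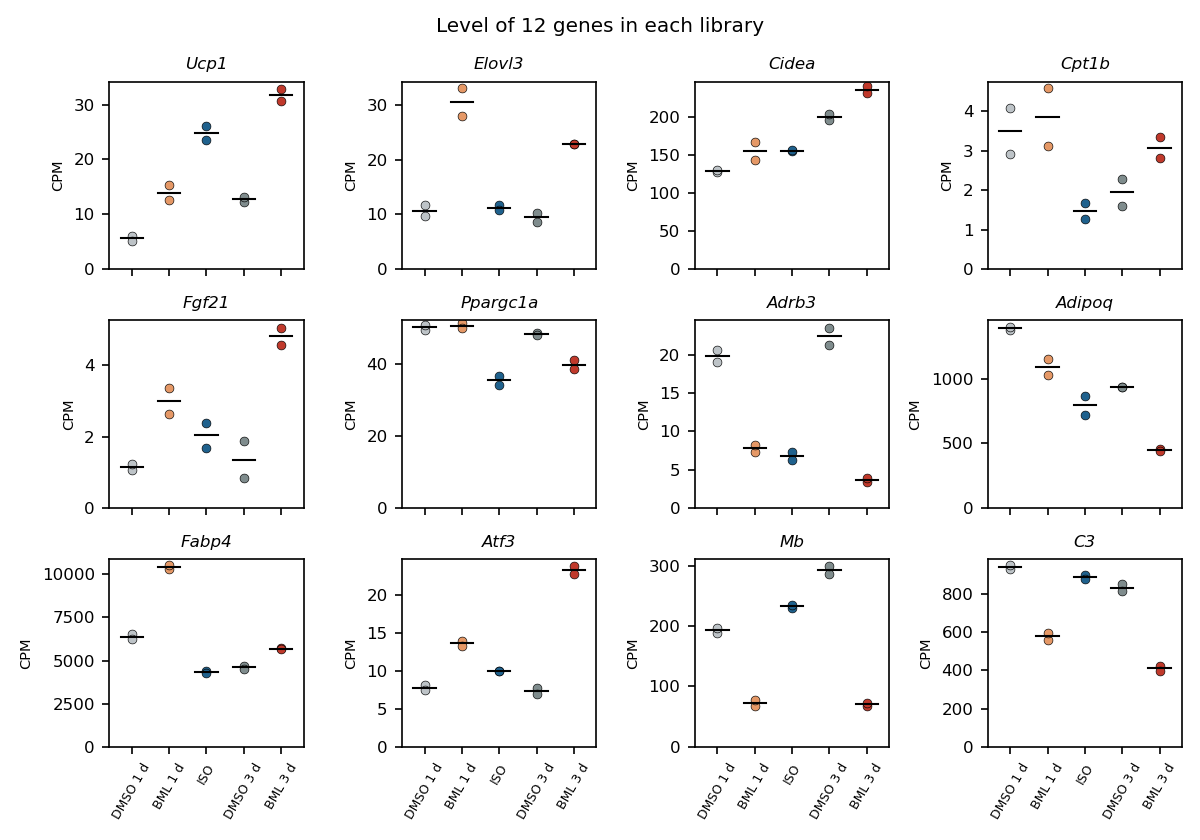
Points are the CPM of single libraries and bars the group means for 12 genes in the 5 groups, with the vertical axes starting at 0. Ucp1 is higher with BML-260 at 3 days than with ISO, Adrb3 and Adipoq are lower, and for Mb and C3 BML-260 at 3 days lies below ISO and below DMSO of both times.

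Most genes that mark the fat cell in general were lower with BML-260. Of 24 listed and tested 18 were lower and 2 higher, with a median log2 fold change of -0.32. Adipoq, the gene of the hormone adiponectin, read 458 and 438 CPM with BML-260 and 864 and 721 CPM with ISO, which did not overlap (log2 fold change -0.82 ± 0.06, SE; edgeR adjusted p = 1.3e-10). With DMSO it read 938 and 935 CPM at 3 days. Adrb3 read 3.4 and 3.93 CPM against 7.24 and 6.3 CPM (-0.87 ± 0.16, SE). Both agents had lower Adrb3 than DMSO, whose 4 libraries held 19.0 to 23.5 CPM. Car3, a carbonic anhydrase abundant in fat cells, fell by 1.07, the retinol carrier Rbp4 by 0.83 and Sncg by 1.29. For Rbp4 and Sncg ISO was above DMSO of both times and BML-260 below it, 372 CPM in both ISO libraries against 202 and 215 CPM with BML-260 and 218 to 268 CPM with DMSO for Rbp4. The members that rose were the fatty acid carriers Fabp4 and Cd36. Fabp4 read 5729 and 5647 CPM against 4383 and 4295 CPM (log2 fold change 0.39 ± 0.04, SE). Without BML-260 library 1 or ISO library 2 the list had 1 higher member. ISO had 4 of the 24 higher and 16 lower against DMSO at 1 day, and 9 higher and 9 lower against DMSO at 3 days, and BML-260 had 4 higher and 16 lower against DMSO at 3 days. In bulk RNA, fewer cells of a type and less RNA per cell cannot be told apart.

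Most genes on the lipolysis list were lower, and genes of fat synthesis were lower more often than higher. The lipolysis list is not limited to lipases and holds the carrier Fabp4, and lipolysis itself was not measured. Of 11 lipolysis genes tested 9 were lower and 2, Fabp4 and Hilpda, higher, with a median log2 fold change of -0.27. Without BML-260 library 2 or ISO library 1 the lower members were 6. Lipe, the hormone-sensitive lipase, read 344 and 319 CPM with BML-260 against 547 and 495 CPM with ISO, without overlap (-0.65 ± 0.05, SE), and Mgll, which frees the last fatty acid, fell by 0.81. Pnpla3, a lipase-like protein under control of the lipogenic factor Srebf1, fell by 0.87. Of 18 genes of de novo lipogenesis 10 were lower and 4 higher (median -0.21). Fasn, the fatty acid synthase, read 926 and 852 CPM against 1409 and 1510.2 CPM (-0.72 ± 0.05, SE), and Srebf1 fell by 0.50. ISO was above DMSO at 3 days for Fasn (1010.0 and 951 CPM) but below DMSO at 1 day (1798 and 1845 CPM). Insig1, a sterol sensor, was among the 4 that rose, by 0.39. Of 16 genes of glycerolipid synthesis 6 were lower, among them the last enzyme of triglyceride synthesis Dgat2 (-0.58) and the acyltransferase Agpat2 (-0.58), and Lpin2 was higher. The list had 0 higher members without ISO library 2.

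More than 1 in 2 of the nuclear genes of oxidative phosphorylation were higher with BML-260, by small amounts, and genes of fatty acid oxidation and of the citric acid cycle moved in both directions. Of 51 nuclear genes of oxidative phosphorylation 28 were higher and none was lower, with a median log2 fold change of 0.15. The count fell to 12 without BML-260 library 2, and 1 member was lower without ISO library 2. Cycs, the gene of cytochrome c, read 93.7 CPM in both BML-260 libraries and 70.0 and 65.9 CPM with ISO (0.47 ± 0.05, SE; edgeR adjusted p = 2.2e-07). Its level with ISO was near that of DMSO at 3 days, 63.8 and 62.2 CPM, and far from that at 1 day, 103 and 105 CPM. Atp5f1, a stalk subunit of the ATP synthase whose exons overlap Wdr77, was higher by 0.35, Ndufv2 of complex I by 0.29 and Cox6c of complex IV by 0.26. Of 23 genes of mitochondrial fatty acid oxidation 9 were higher and 4 lower (median 0.11). Both subunits of the trifunctional protein rose, Hadha from 851 and 829 CPM with ISO to 1144 and 1111 CPM (0.43, exons shared with Garem2) and Hadhb by 0.49, as did the thioesterase Acot2 by 0.62. The acyl-CoA synthetase Acsl1, which feeds fatty acids into either oxidation or storage, fell by 0.61. Without BML-260 library 2 only 2 members of this list were lower. Of 22 citric acid cycle genes 8 were higher and 3 lower, among the latter the cytosolic Idh1 (-0.44), which makes NADPH. The higher members were 5 without BML-260 library 1 and 5 without library 2, and the lower member was 1 without BML-260 library 2 or ISO library 1.

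How far the mitochondrial genes differed between the agents depended on the DMSO time to which ISO was set. BML-260 against DMSO at 3 days had 31 of the 51 oxidative phosphorylation genes higher and 2 lower, with a median of 0.14. ISO against DMSO at 1 day had 0 higher and 48 lower, with a median of -0.41, and ISO against DMSO at 3 days had 4 higher and 4 lower, with a median of -0.01. The difference of the effects matched by labelled time was therefore called higher for 49 of the 51, with a median of 0.53. For the 22 citric acid cycle genes the matched difference was higher for 18 and lower for 0 (median 0.43), and for the 23 genes of fatty acid oxidation higher for 16 and lower for 1 (median 0.37).

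**Figure D4:**
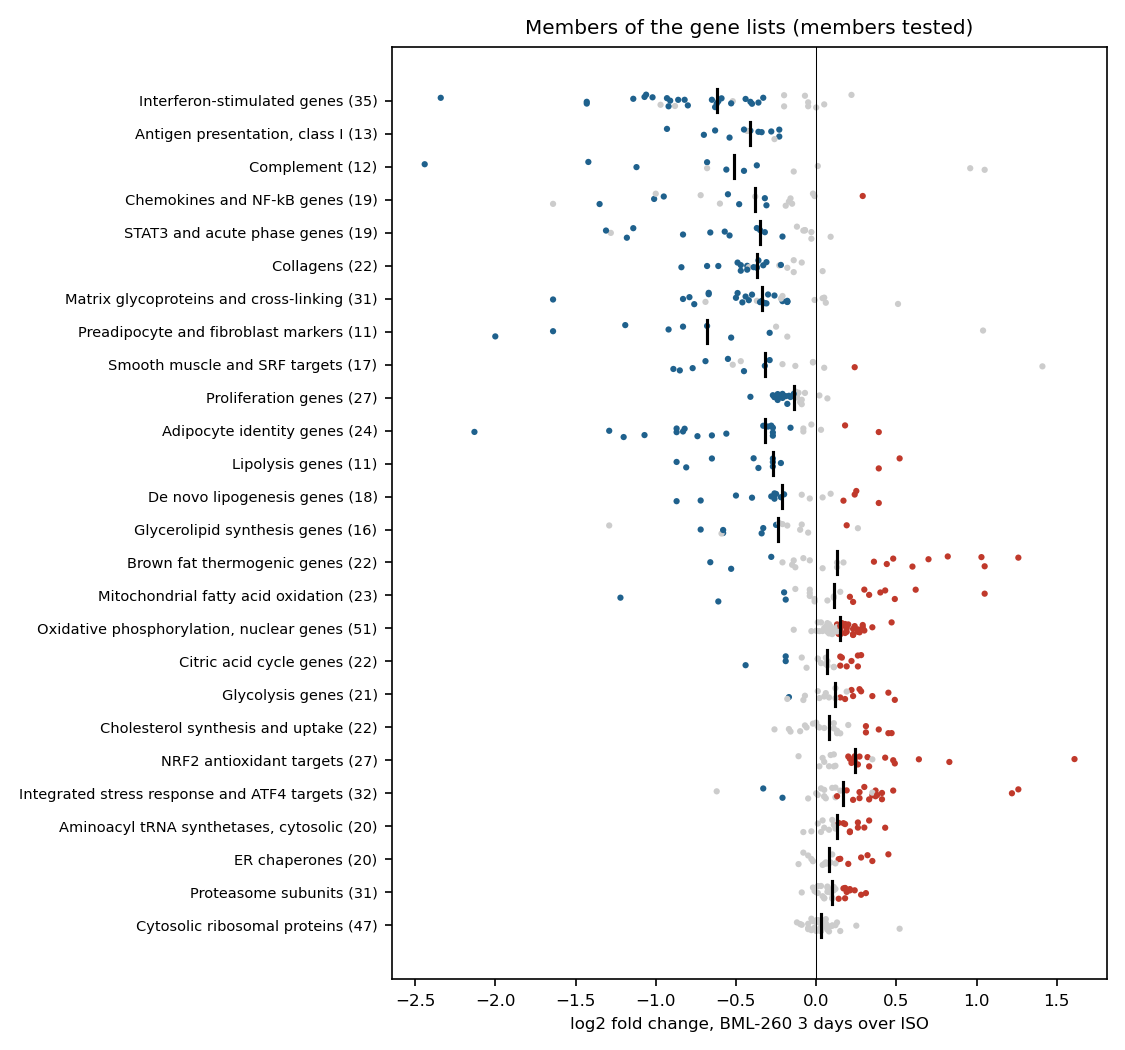
Each point is a tested member of a gene list, at its log2 fold change of BML-260 at 3 days over ISO, red where higher, blue where lower and grey where it did not pass, and black bars are the list medians. The medians of interferon (-0.62), complement (-0.51), collagen (-0.37) and fat cell genes (-0.32) lie left of 0, and those of NRF2 (0.24), ATF4 (0.17) and oxidative phosphorylation genes (0.15) right of it.

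Many genes of cell stress were higher with BML-260. Of 27 NRF2 target genes 17 were higher and none lower, with a median log2 fold change of 0.24. ISO had 10 of them higher and 8 lower against DMSO at 1 day, and 14 higher and 1 lower against DMSO at 3 days. Beside Gsta3 they included Cbr3, a carbonyl reductase, at 126 and 125 CPM against 66.9 and 73.3 CPM (0.83 ± 0.06, SE; edgeR adjusted p = 1.7e-11), and Srxn1, which repairs peroxiredoxins, at 163 and 162 CPM against 113 and 119 CPM (0.48 ± 0.05, SE). The groups did not overlap for Srxn1, and for Cbr3 the rule that chose it required this. Gsta4, which clears lipid aldehydes, rose by 0.64, and its reads may be shared with its paralogs, as may those of Gsta3. The heme oxygenase gene Hmox1 was raised by both agents, 1189 and 1235 CPM with BML-260 and 882 and 1063 CPM with ISO beside 525 to 644 CPM in the DMSO libraries, and differed by 0.32. Of 32 genes of the integrated stress response, the pathway in which a phosphorylated initiation factor raises ATF4, 16 were higher and 2 lower (median 0.17). Asns, the asparagine synthetase, read 216 and 215 CPM against 150 and 159.6 CPM (0.48 ± 0.05, SE), Ppp1r15a, which reverses the pathway, rose by 0.41 and the folate enzyme Aldh1l2 by 0.41. The lower members were Cebpb and Ddit4, and the list had 1 lower member without BML-260 library 1 or ISO library 2 and 0 without BML-260 library 2. Of 20 cytosolic tRNA synthetases, enzymes that load amino acids onto tRNA and many of them ATF4 targets, 10 were higher and none lower (median 0.13), led by Iars at 193 and 194 CPM against 140.3 and 147 CPM (0.43). Of 20 chaperone and folding genes of the endoplasmic reticulum 7 were higher (median 0.08), led by Hspa5, the main chaperone there, at 3281 and 3294 CPM against 2249.6 and 2566 CPM (0.45). That count was 4 without either BML-260 library or ISO library 1. The difference matched by labelled time was higher for 2 of these 20 genes and lower for 6 (median -0.07). ISO itself lay above both DMSO times for Hspa5, at 1774 and 1775 CPM after 3 days.

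The promoters of Gsta3 and Atf3, which rose most among the leading genes, hold letters known from these pathways. They are printed from RefSeq on GRCm38.p6, 5′ to 3′ on the strand of the gene, with the motif in capitals. Gsta3 (chr1:21240424-21240512, plus strand) holds the antioxidant response element TGACNNNGC, to which NRF2 binds, at -121 from the start. Atf3 (chr1:191183396-191183483, minus strand) holds the amino acid response element TGATGCAA, to which ATF4 binds with C/EBP partners, on the opposite strand at -110.
Gsta3: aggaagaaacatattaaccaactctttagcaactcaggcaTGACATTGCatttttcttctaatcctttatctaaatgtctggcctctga
Atf3: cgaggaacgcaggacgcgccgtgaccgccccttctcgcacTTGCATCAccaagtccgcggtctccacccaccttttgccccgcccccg
Searched on both strands in windows from 250 bases before to 50 bases after the start, TGACNNNGC was found in 8 of 23 NRF2 targets with a promoter in the table (34.8%) and in 1696 of 9896 tested genes (17.1%). Among all genes called it was in 157 of 793 that were higher (19.8%) and in 178 of 1005 that were lower (17.7%). TGATGCAA was found in 7 of 27 genes of the integrated stress response (25.9%), in 4 of 12 tRNA synthetases (33.3%) and in 74 of 9896 tested genes (0.748%). Among all genes called, TGATGCAA was in 9 of 793 that were higher (1.13%) and in 4 of 1005 that were lower (0.398%). These lists hold known targets, chosen in part because such letters are there, and a match describes the window only.

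Most interferon-stimulated genes were lower with BML-260. Of 39 listed 35 were tested, and 24 were lower and none higher, with a median log2 fold change of -0.62. Ifit3, an antiviral protein, read 5.92 and 7.3 CPM against 14.4 and 13.5 CPM, and the groups did not overlap (log2 fold change -1.07 ± 0.14, SE; edgeR adjusted p = 2.9e-06). The guanylate-binding protein gene Gbp3 read 10.7 and 12.7 CPM against 22.7 and 19.1 CPM (-0.82 ± 0.11, SE). Psmb9, a subunit that turns the proteasome towards making peptides for antigen presentation, read 14.7 and 14.3 CPM against 29.2 and 26.3 CPM (-0.93 ± 0.10, SE), and it shares exons with Tap1. For Ifit3 ISO was within the DMSO range of 11.2 to 14.5 CPM and BML-260 below it, while Gbp3 with ISO lay below its DMSO libraries, at 25.2 to 28.9 CPM. Against DMSO at 3 days 24 of the 35 were lower and 1 higher with BML-260, and 4 lower and 6 higher with ISO, both set against the same libraries. The other members lie over a wide range, from -2.34 for Mx1, which read under 1 CPM in all 4 libraries, to 0.22 for Rsad2, which did not pass. Genes of class I antigen presentation, the display of peptides on the cell surface, were lower as well, 11 of 13 with a median of -0.41. B2m, the light chain of every class I molecule, read 258 and 271 CPM against 366 and 359 CPM (-0.45 ± 0.05, SE), and Nlrc5, the transactivator of these genes, fell by 0.70. Among them the H2 genes are near-identical to each other, so their shares of reads are uncertain.

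The promoters of Ifit3 and Gbp3 are shown because they hold the interferon-stimulated response element, GAAA, any 2 bases and GAAA again, in more than 1 copy. Capitals mark it, here read on the opposite strand, again from RefSeq on GRCm38.p6. Gbp3 (chr3:142559959-142560043, plus strand) has overlapping copies at -45 and -39, and Ifit3 (chr19:34583333-34583456, plus strand) separate ones at -156 and -122.
Gbp3: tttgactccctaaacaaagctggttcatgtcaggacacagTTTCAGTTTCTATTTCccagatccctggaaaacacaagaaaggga
Ifit3: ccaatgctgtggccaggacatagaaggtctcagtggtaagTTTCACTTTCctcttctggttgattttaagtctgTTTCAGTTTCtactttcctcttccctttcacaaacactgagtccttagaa
The element was found in 12 of 26 interferon-stimulated genes with a promoter in the table (46.2%) and in 357 of 9896 tested genes (3.61%). Of all genes called, 56 of 1005 that were lower (5.57%) and 31 of 793 that were higher (3.91%) held it. The list was made of known interferon targets.

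Other genes of innate defence were lower too, though not all. Of 12 complement genes tested 7 were lower and none higher, with a median log2 fold change of -0.51. C3, the central complement protein, read 423 and 400.0 CPM with BML-260 and 902 and 882 CPM with ISO, without overlap (-1.12 ± 0.05, SE; edgeR adjusted p = 1.1e-15). ISO was near the DMSO libraries of C3, at 817 to 955 CPM. C1ra, a protease that starts the classical pathway, fell by 0.68. Of 19 chemokine and NF-kB genes 7 were lower and 1, Relb, was higher (median -0.38). Ccl2, which draws monocytes, read 6.47 and 6.09 CPM against 16.4 and 15.7 CPM, and the chemokine genes Ccl7 and Ccl9 fell by 0.95 and 1.01. Of 19 genes of STAT3 signalling and the acute phase 11 were lower and none higher (median -0.35). Hp, the hemoglobin scavenger haptoglobin, read 219 and 227 CPM with BML-260, 537 and 473 CPM with ISO and 870.1 CPM or more with DMSO (-1.18 ± 0.07, SE). Both agents thus lay below DMSO for Hp, and BML-260 lowest. Lrg1, a secreted acute phase protein, read 26.3 and 22.2 CPM against 55.4 and 51.2 CPM, and Lcn2, an iron-binding defence protein, fell by 0.54. Lcn2 went the other way against DMSO, with ISO at 43.7 and 48.2 CPM and BML-260 at 31.6 and 31.8 CPM above the DMSO range of 20.7 to 25.0 CPM. Without ISO library 2 the STAT3 list had 7 lower members and 1 higher.

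Most genes of the extracellular matrix and most markers of the cells that lay it down were lower with BML-260. Of 22 collagen genes tested 15 were lower and none higher, with a median log2 fold change of -0.37. Col3a1 read 594 and 583 CPM against 1040.2 and 853 CPM (-0.68 ± 0.07, SE) and Col5a3 read 377 and 374 CPM against 698 and 642 CPM (-0.84 ± 0.04, SE). For Col5a3 BML-260 lay near DMSO at 3 days (367 and 371 CPM) and ISO stood out. Of 31 matrix glycoproteins and cross-linking enzymes 22 were lower and none higher (median -0.34). Fn1, the gene of fibronectin, read 1219 and 1215 CPM against 1987 and 1899 CPM (-0.67 ± 0.05, SE), and Fbn1, of fibrillin, 157 and 167 CPM against 293 and 286 CPM (-0.83 ± 0.05, SE). Here ISO was near DMSO at 3 days, 2029 and 2115 CPM for Fn1. Of 11 markers of preadipocytes and fibroblasts 8 were lower and none higher (median -0.68), led by Ly6a at 1.81 CPM in both BML-260 libraries against 8.13 and 6.49 CPM (-2.00 ± 0.19, SE). The 13 of 14 markers measured summed to 502 to 506 CPM with BML-260, 741 to 803 CPM with ISO, 791 to 842 CPM with DMSO at 3 days and 601 to 649 CPM with DMSO at 1 day, with Lum at 0 in the 4 libraries compared. The part of the share of such cells in the fall of matrix genes was not tested. Of 17 smooth muscle and SRF targets 8 were lower and 1, Srf, was higher (median -0.32). Acta2, smooth muscle actin, read 36.7 and 34.0 CPM against 68.3 and 62.6 CPM (-0.89 ± 0.07, SE). The list had 0 higher members without BML-260 library 1, BML-260 library 2 or ISO library 1.

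The matrix lists also depended on the DMSO time. Against DMSO at 3 days 13 of 22 collagens were lower with BML-260 and none higher, and with ISO 3 were lower and 10 higher. Against DMSO at 1 day 18 were higher with ISO and none lower, so that the difference matched by labelled time was lower for 21 of 22 with a median of -0.77. For the 11 preadipocyte and fibroblast markers the matched difference was lower for 9, with a median of -1.38.

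Receptor and cyclic AMP genes were mixed. Of 27 tested 9 were lower and 2 higher, with a median log2 fold change of -0.12. Without BML-260 library 2 or ISO library 1, and with DESeq2, 5 were lower, and 0 or 1 were higher in each leave-out. Rgs2, which damps receptor signalling, read 53.4 and 65.0 CPM against 109 and 98.4 CPM (-0.80 ± 0.07, SE), and the phosphodiesterase gene Pde7b 0.932 and 1.06 CPM against 3.17 and 3.25 CPM (-1.68 ± 0.25, SE). The catalytic subunit of protein kinase A, Prkaca, fell by 0.24. Of 22 genes that cyclic AMP induces early 5 were lower and 2 higher (median 0.02), the higher ones being Atf3 and Irs2. Nr4a1, an orphan receptor induced within the first hours of cyclic AMP, read 7.9 and 7.5 CPM against 16.5 and 15.3 CPM (-1.05 ± 0.11, SE). ISO was at the level of DMSO for Nr4a1, 14.5 to 17 CPM, and BML-260 below. Without BML-260 library 2 or ISO library 1 the lower members were 2, and the higher member was 1 without either of these or BML-260 library 1. The phosphatase Dusp22 itself read 64.0 and 72.4 CPM against 76.6 and 72.5 CPM, a difference of -0.12 that did not pass (edgeR adjusted p = 0.15) and passed without BML-260 library 2 (-0.22).

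Some glycolysis, hypoxia and cholesterol genes were higher, and many genes of cell division lower. Of 21 glycolysis genes 9 were higher and 1 lower (median 0.12), led by the glucose transporter Slc2a1 at 168 and 154 CPM against 114 and 115 CPM (0.49 ± 0.05, SE). Without BML-260 library 1 the count was 5, and the list had 0 lower members, in place of Pfkm, without BML-260 library 1, BML-260 library 2 or ISO library 1. Of 22 targets of the hypoxia-inducible factor 8 were higher and 2 lower (median 0.07), among the former Slc2a1, Ndrg1 and the mitochondrial protein gene Higd1a (0.47). The lower members were 1 without either BML-260 library or ISO library 1. This list depended on the DMSO time as well. The difference matched by labelled time was higher for 1 of the 22 and lower for 10 (median -0.3), and it was -0.02 for Ndrg1. Of 22 cholesterol genes 5 were higher and none lower (median 0.08), among them Lss (0.47) and Sqle (0.45), enzymes of sterol synthesis. Without BML-260 library 1 or ISO library 2 there was 1 lower member. Of 27 proliferation genes 15 were lower and none higher (median -0.14), among them Cdk1 at 159 and 163 CPM against 201 and 189 CPM (-0.27 ± 0.05, SE). That count was 9 with DESeq2 and 5 without BML-260 library 2. Of 31 proteasome subunits 11 were higher and none lower (median 0.10), led by Psmd8 (0.31), with 6 higher without BML-260 library 2 and 5 without ISO library 1.

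Set against DMSO of its own labelled time, BML-260 at 3 days changed 5407 genes (35.5% of those tested, 17.3% higher and 18.3% lower) and ISO 6339 (41.7%, 21.4% higher and 20.3% lower), 2 comparisons without a shared library. Genes called in both numbered 3172, which is 58.7% of the BML-260 calls and 50% of the ISO calls. Of them 1358 were higher in both, 1189 lower in both and 625 moved apart, and 1203 also differed in the direct comparison. The genes that moved apart with ISO higher and BML-260 lower, 352 in all, included matrix and contractile genes. Itga11, a collagen receptor, rose by 1.55 with ISO and fell by 1.08 with BML-260, and Tagln, an actin-binding protein, rose by 0.91 and fell by 1.07. Those with BML-260 higher and ISO lower, 273 in all, included Cycs, Acot2, Uqcrq of complex III and Gsta4. These sets depend on the DMSO time to which ISO was set. Against DMSO at 3 days ISO differed by -0.05 for Itga11 and by -0.19 for Gsta4, and neither passed. Genes raised by both included Ucp1, the lubricin gene Prg4 (1.83 with BML-260 and 3.07 with ISO) and Ghrh, the gene of growth hormone releasing hormone (1.58 and 2.26). With ISO these were also higher against DMSO at 3 days, by 0.96 for Ucp1, 2.4 for Prg4 and 1.01 for Ghrh. Genes lowered by both included Adrb3 (-2.61 and -1.56), Prox1, the regulator of lymphatic fate (-1.42 and -1.34), and Hp (-2.02 and -1.19). Prox1 did not differ in the direct comparison beyond its error, with a 95% interval of -0.38 to 0.17 for the log2 fold change, and neither did Kalrn, raised by both, with -0.08 to 0.29.

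**Figure D5:**
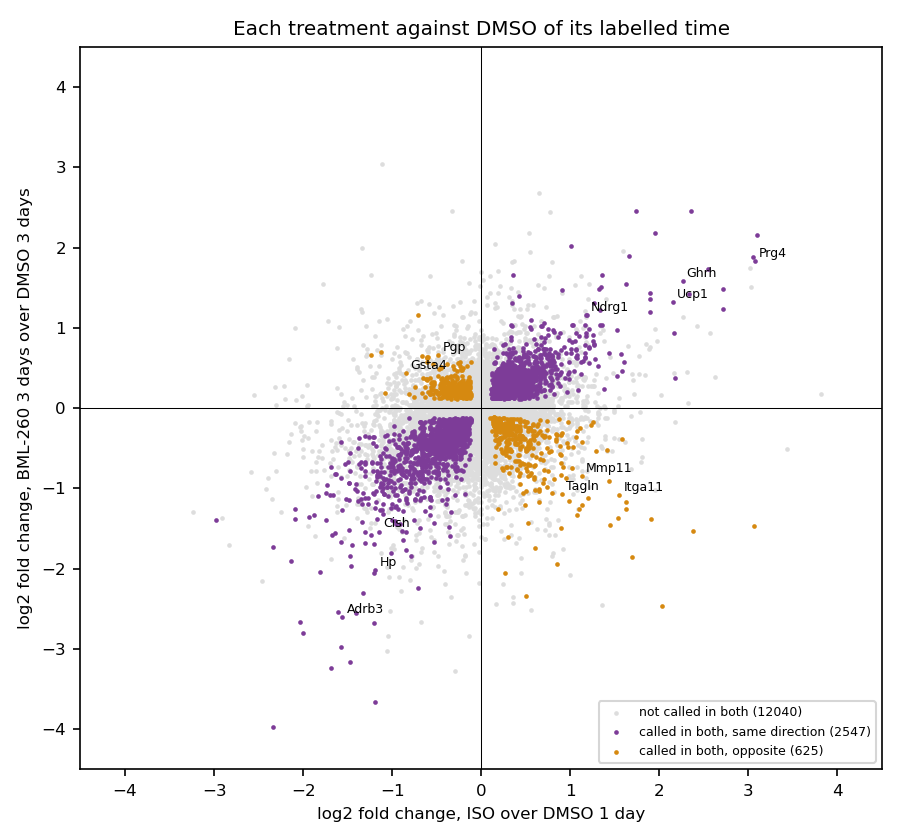
Each point is a tested gene, with the log2 fold change of ISO over DMSO at 1 day on the horizontal axis and of BML-260 at 3 days over DMSO at 3 days on the vertical axis. Purple points are the 2547 genes called in both in 1 direction, and orange points the 625 called in both in opposite directions.

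The difference of these effects, tested in the same fit, was called for 3527 genes (23.2%), 1565 higher (10.3%) and 1962 lower (12.9%) with BML-260. Without DMSO 3 days library 1 the balance turned to 1391 higher and 1373 lower, and without library 2 to 1387 and 1326. Of the 1110 genes higher in the direct comparison the matched difference was also higher for 436, lower for 45 and not called for 629. Of the 1389 lower genes it was also lower for 782, higher for 44 and not called for 563. Of genes with 10 CPM or more in the highest group, predicted loci left out, the largest matched differences upwards were those of Osgin1 (1.61), Fam195a (1.32), Atf3 (1.30), Gsta4 (1.28), Lrrc39 (1.27) and Gsta3 (1.24). Osgin1, an oxidative stress gene, differed little in the direct comparison, at 6.14 and 6.24 CPM with BML-260 and 5.5 and 5.97 CPM with ISO. The DMSO libraries of Osgin1 differed by time, at 16.4 and 17 CPM after 1 day and 5.59 and 6.19 CPM after 3 days. Under it the largest matched differences downwards were those of C4b (-2.85), Itga11 (-2.63), Adamts2 (-2.36), Mb (-2.32), Timp3 (-2.14) and Mmp11 (-1.98). Atf3, Gsta3, C4b and Mb were thus set apart both directly and after matching, while Mmp11, whose exons overlap Chchd10, passed after matching and not directly (log2 fold change -0.13, edgeR adjusted p = 0.27), though it passed directly without BML-260 library 2. The direct and the matched test use the same BML-260 and ISO libraries, so a call in both is not independent support. ISO against DMSO at 3 days gave 3026 genes (19.9%), 1620 higher (10.6%) and 1406 lower (9.24%), fewer than against DMSO of its labelled time. With upper-quartile scaling these were 1234 higher and 1817 lower, and with DESeq2 1217 and 647.

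In the authors' deposited table on this question, which sets BML-260 of both times together against ISO, 271 genes have an adjusted p under 0.05, 202 lower and 69 higher with BML-260. Mb stands there at a log2 fold change of -1.57 and Adam11 at -1.45, both values of the authors' deposited table.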

How the data were processed

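RNA of brown adipocytes was sequenced in 10 libraries, 2 in each of 5 groups, grouped by title and treatment label. The submitters' processing notes name TopHat2 2.1.1, bcl2fastq 2.17.1.14, DESeq2 and bedtools, besides mm10 and mm9 without a role. Which annotation, strand setting and rule of counting were used was not given in the sources used here. Reads from stretches where genes overlap, on the same or opposite strands, therefore cannot be assigned with certainty. The authors deposited unnormalized counts by gene symbol for all genes. A second deposited table gives, per the file headers, the authors' log2 fold change with its raw and adjusted p-value. Spreadsheet software had turned 26 symbols into dates, 0.242% to 0.264% of a library's counts, and these were kept.

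Tests across genes used R 4.3.3 with edgeR 4.0.16. Library sizes were scaled by TMM, genes were filtered by filterByExpr (count 10, total 15), group means were fitted by quasi-likelihood in the 10 libraries, which left 5 residual degrees of freedom. P-values were adjusted after Benjamini and Hochberg across 15212 genes. Any gene called, higher or lower has an adjusted p under 0.05. SE is the absolute log2 fold change over the square root of F. CPM used TMM-scaled library sizes. The common dispersion was 0.00115, a coefficient of variation of 3.39%. A list is described by its counts and median, without a set test.

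Named genes are the 12 higher and 12 lower of largest change averaging 10 CPM or more where highest, with no overlap of libraries (predicted loci and date symbols passed over), 6 and 6 of the matched difference, 6 for each direction of genes called in both effects, up to 4 of smallest p per list, and Ucp1, Ppargc1a, Dio2 (not tested for low counts), Cidea, Elovl3, Adrb3, Adipoq, Fabp4 and Dusp22. The 39 lists and their 884 members, of which 809 were tested, and the rule were chosen with earlier results of these data known. Of 175 named genes 64 have exons that overlap another gene's in GENCODE M21. Genes outside that rule (C4a, Fgf21, Cpt1b, Otop1, Prdm16, Cd36, Lpin2, Hilpda, Hmox1, Cebpb, Ddit4, Relb, Srf, Pfkm, Irs2, Mx1 and Rsad2) were chosen after their values were seen. Motifs were searched as exact matches. The fit was tested on simulated data. Alternatives were RLE and upper-quartile scaling, DESeq2 1.42.0, no filter and a stricter one, the compared groups alone, a replicate block and each library left out.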

Additional observations from a re-analysis of the deposited data

Results flagged for a closer look

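For 3527 genes the effect of BML-260 at 3 days against DMSO at 3 days differed from the effect of ISO against DMSO at 1 day, by a test of that difference in edgeR's fit (23.2% of the genes tested, 1565 higher and 1962 lower with BML-260). With DMSO at 3 days as the reference of ISO too, the test is the direct comparison, with 2499 genes.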

How the results depend on the processing

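The direct comparison called 2499 genes, 1575 with DESeq2 (1557 of them also called by edgeR, in the same direction) and 1416 to 2127 with 1 library left out. With the replicate number as a block it called 2657. The numbers do not pair the libraries (correlation of replicate deviations 0.039), and the block changed the matched difference from 3527 to 3687. DESeq2 gave 2275 for that difference and 371 in place of 625 genes moved apart. ISO against DMSO at 3 days, added after seeing the data, gave 3026 genes, 1864 with DESeq2 and 1469 (without ISO library 2) to 2542 with 1 library left out, 1693 and 1711 without DMSO 3 days library 1 and 2. Upper-quartile scaling moved the share of higher calls from 48.5% to 38.5% for BML-260 against DMSO and from 51.3% to 40.3% for ISO against DMSO, and that of the direct comparison from 44.4% to 42.3%. RLE scaling moved the direct comparison to 49.2% (1255 higher, 1294 lower), which leaves little excess of lower calls, and the matched difference to 1690 higher and 1798 lower. Of the values of named genes 1863 kept their side of the threshold, 40 lost the call and 7 gained it. None changed direction where the gene was called in the main fit or in the alternative. Direction was not compared for genes called in neither. Of the list counts 768 stayed within 1.5 times and 90 did not. Depth limits genes of low count: the SE of the log2 fold change was 0.04 for Ndrg1, at 239 CPM or more, and 0.61 for Mx1, under 1 CPM.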

Other observations

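Over all genes tested 16.4% passed in the direct comparison, the share to hold beside each count in this section. Clock genes moved in a small set. Of 18 tested 6 were lower with BML-260 at 3 days than with ISO and 1 was higher, with a median log2 fold change of -0.14. Dbp, an output factor of the clock, read 65.0 and 59.0 CPM with BML-260 and 84.0 and 97.8 CPM with ISO (-0.56 ± 0.08, SE), and Arntl, a core activator, 7.57 and 7.2 CPM against 5.2 and 4.82 CPM (0.56 ± 0.14, SE). ISO stood apart from DMSO of both times for Dbp (40.9 to 61.3 CPM) and for Arntl (8.41 to 12.7 CPM). Without ISO library 2 the counts were 3 lower and 3 higher and Arntl no longer passed (0.50), and without BML-260 library 2 there were 3 lower. The hours at which the cells were taken are not stated in the labels.

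Of 27 lysosome and autophagy genes tested 6 were higher and 5 lower. The autophagosome gene Gabarapl1 read 272 and 305 CPM against 189 and 199.9 CPM (0.57 ± 0.05, SE) and the cargo receptor Sqstm1 rose by 0.34, while the lysosomal protease Ctsb fell by 0.32. The higher members were 3 without BML-260 library 2, and the lower were 1, 3 and 2 without BML-260 library 1, BML-260 library 2 and ISO library 1. Of 9 classical MAP kinase phosphatases Dusp4 (0.49), Dusp8 (0.67) and Dusp16 (0.31) were higher and Dusp10 (-0.29) lower, calls lost without BML-260 library 2 for Dusp16 and without ISO library 1 for Dusp8 and Dusp10. Of 47 cytosolic ribosomal protein genes edgeR called 0, and DESeq2 called Rps24 (0.11).

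Stress and peroxisome lists outside those described above moved little. For the p53 targets the 3 calls among 18 lie near the share over all genes tested, 16.4%. Of 16 heat shock genes 6 were higher, among them the small chaperone Hspb8 (0.26), and 2 were lower, among them Cryab (-0.45). The higher members were 3 without BML-260 library 1 or ISO library 1, and the lower were 0 without either of these or BML-260 library 2. Of 18 p53 targets Gadd45a (0.36) and Tnfrsf10b were higher and Phlda3 (-0.31) lower, with 1 higher without BML-260 library 1 or ISO library 1. Of 24 peroxisome genes 3 were higher, among them Acox2 and the catalase gene Cat (0.31), and 3 lower, among them the sterol carrier Scp2 (-0.23), with 1 lower without BML-260 library 2. Of 10 atypical dual-specificity phosphatases Dusp3 was higher (0.36), and without BML-260 library 2 the list had 0 higher and 1 lower.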
